A study of Mus musculus with 136 samples.

Results

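The genes described here carry lactate and pyruvate across membranes and interconvert them. The set has 8 members, chosen by gene symbol from the 47643 genes of the count table. Slc16a1, Slc16a3 and Slc16a7 encode plasma membrane carriers, and Bsg encodes the partner of the Slc16a1 and Slc16a3 products. Ldha and Ldhb encode lactate dehydrogenase subunits, and Mpc1 and Mpc2 mitochondrial carrier subunits. The members were measured in paired embryo and yolk sac libraries from 66 concepti of the NOD mouse strain at 8.5 days of gestation, in pregnancies of diabetic and of normal dams. At 5–6 somite pairs, the normal group had 17 concepti (10 litters) and the diabetic group 17 (9 litters), and at 7–9 somite pairs the groups had 16 (7 litters) and 16 (6 litters). NOD females become diabetic spontaneously through autoimmune loss of insulin-producing cells, and the labels name no agent given to either group. Maternal glucose at sacrifice was 105 to 164 mg/dl in normal dams and 423 to 595 mg/dl in diabetic dams, with 1 diabetic litter recorded only as above the scale. All animals were of the same strain and were fed the same chow diet. Littermates share a dam, and 7 of the 16 diabetic concepti at the later stage came from the single litter D24M15.

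Lactate and pyruvate cross the plasma membrane together with a proton through monocarboxylate transporters (MCT). MCT1, encoded by Slc16a1, binds its substrates with intermediate affinity and carries them in either direction. MCT4, the product of Slc16a3, is known for lactate export from glycolytic cells, and MCT2, the product of Slc16a7, for uptake at high affinity. Basigin, encoded by Bsg, is the membrane partner that MCT1 and MCT4 need to reach the cell surface. Lactate dehydrogenase is a tetramer of subunits A and B: the A subunit, from Ldha, is associated with lactate formation and the B subunit, from Ldhb, with lactate oxidation. Pyruvate enters the mitochondrion through a complex of MPC1 and MPC2, and both subunits are needed for transport. Embryos of this age rely largely on glycolysis, and the visceral yolk sac is the organ through which nutrients pass to them before the chorioallantoic placenta works.

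Values are normalised read counts: counts of molecules divided by DESeq2 size factors over all compared libraries. The library method reads 1 tag per molecule at the 3′ end, so levels of different genes are compared without division by length, as far as the 3′ end of each gene was captured and counted. Totals ranged from 1017901 to 5658850 counts per library, with a median of 2302820. Summed markers of visceral endoderm, the absorptive outer layer of the yolk sac, lay between 4580 and 18937 CPM (counts scaled to a common library total) in yolk sacs and between 45.0 and 1572 CPM in embryos, and all 10 markers were detected in each group. Neural markers lay between 198 and 514 CPM in embryos and at or below 22.9 CPM in yolk sacs. Heart markers overlapped between tissues at 5–6 somite pairs. They reached 197 CPM in a normal and 130 CPM in a diabetic yolk sac, where the embryo medians were 185 and 173 CPM. The medians of these yolk sac groups were 22.1 and 14.2 CPM. At 7–9 somite pairs the highest yolk sac had 96.2 CPM and the lowest embryo 183 CPM. The part of this signal in the tissue differences was not tested. For concepti D28M27C and N28M07E, the sex labels of embryo and yolk sac differ and each library matches its own label, so the embryo and the yolk sac under each of these names differ in sex. The stage of a yolk sac was taken from the embryo with the same conceptus name. Among yolk sacs from later diabetic pregnancies, the library of D28M36C stood apart: it had the lowest total (1017901 counts) and the highest level of Slc16a1, Slc16a3, Bsg and Ldha and the lowest of Mpc2 in its group. Its markers of visceral endoderm (8533 CPM, group median 13481) and heart (6.88 CPM, median 14.2) were also the lowest. Its erythroid markers were near the median (7937 against 8025 CPM). Values are also given without this library where leaving it out moved them by over 1.5 times or turned their sign. The embryo of this conceptus was kept in those values. It too had the highest Slc16a3 (1278) and Ldha (5151) and the lowest Mpc2 (33.3 normalised counts) of its group. In the embryos and yolk sacs of concepti D24M15G and N28M06C, sequenced again as batch controls, 22 member values with at least 50 counts differed from the first library by −0.38 to 0.27 on the log2 scale, with a median size of 0.06.

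Promoter sequences are shown for Slc16a1 and Slc16a3, which differed between tissues in opposite directions, and for Ldha and Ldhb, which differed to unequal degrees. Each line holds the 250 bases before the listed transcription start, 5′ to 3′ on the strand of the gene, from RefSeq on GRCm38.p6. Capitals mark ACGTG on either strand, the core of the sites bound by hypoxia-inducible factors, also where it lies within the longer E-box CACGTG.
Slc16a1, chr3:104638414-104638663, plus strand: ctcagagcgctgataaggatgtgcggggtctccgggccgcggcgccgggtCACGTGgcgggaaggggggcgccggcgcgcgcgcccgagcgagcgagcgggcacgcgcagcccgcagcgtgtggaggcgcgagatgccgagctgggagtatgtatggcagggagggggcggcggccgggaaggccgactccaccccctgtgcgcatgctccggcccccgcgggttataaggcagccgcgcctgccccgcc
Slc16a3, chr11:120948817-120949066, plus strand: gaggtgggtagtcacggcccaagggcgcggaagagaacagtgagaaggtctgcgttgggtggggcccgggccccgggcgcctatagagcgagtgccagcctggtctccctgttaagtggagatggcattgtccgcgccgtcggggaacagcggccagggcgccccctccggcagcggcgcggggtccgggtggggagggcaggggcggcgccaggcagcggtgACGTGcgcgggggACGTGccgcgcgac
Ldha, chr7:46845554-46845803, plus strand: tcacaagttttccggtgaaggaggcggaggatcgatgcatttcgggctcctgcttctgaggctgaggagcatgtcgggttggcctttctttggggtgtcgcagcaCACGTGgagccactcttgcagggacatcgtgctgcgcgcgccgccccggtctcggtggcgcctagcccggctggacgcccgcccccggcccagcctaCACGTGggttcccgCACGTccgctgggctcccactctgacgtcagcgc
Ldhb, chr6:142507958-142508207, minus strand: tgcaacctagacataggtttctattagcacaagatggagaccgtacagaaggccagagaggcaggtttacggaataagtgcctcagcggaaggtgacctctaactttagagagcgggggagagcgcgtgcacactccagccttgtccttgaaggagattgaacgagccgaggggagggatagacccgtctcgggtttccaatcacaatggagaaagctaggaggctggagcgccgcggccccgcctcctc

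In the Ldha window ACGTG lay in 3 stretches, which begin 145, 48 and 34 bases before the start, and 2 of them formed the full E-box. The Slc16a3 window held 2 stretches, at 27 and 14 bases before the start, and the Slc16a1 window held 1 E-box that begins 200 bases before it. The Ldhb window, a further Ldha start, the Mpc2 window and both Mpc1 windows held no ACGTG. The form GCGTG was not counted in any window, and the Ldhb window holds it. Of all 32851 promoter windows of this length, 16.6% held ACGTG and 6.02% the E-box, so a match in a single window is a description and not a site of binding.

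In absolute level the members formed a steep order that depended on the tissue. In embryos from normal pregnancies at 5–6 somite pairs, Ldha had a mean of 3428 ± 630.0 normalised counts, followed by Slc16a3 with 789 ± 208, Slc16a1 with 476 ± 117 and Bsg with 418 ± 60.5 (SD, n = 17). The SD ranges of Slc16a3 and Slc16a1 overlapped, as did those of Slc16a1 and Bsg. Such overlap is a description and does not test the order of genes within the same libraries. Ldhb followed with 81.0 ± 10.8 and Mpc2 with 45.2 ± 10.5. In the yolk sacs of the same pregnancies Slc16a1 stood first with 3386 ± 602, ahead of Ldha with 2634 ± 514, whose SD ranges overlap. Bsg came next with 443 ± 65.6, then Slc16a3 with 201 ± 93.8, Mpc2 with 186 ± 79.3 and Ldhb with 12.9 ± 5.86. The SD ranges of Slc16a3 and Mpc2 overlap, and their order was not tested.

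The remaining members were near the detection limit. Slc16a7 had 67 counts in all over the compared libraries, was seen in 52 of them, and reached at most 4 counts in a library. Mpc1 had 524 counts, was seen in 123 libraries, and reached at most 15. Both failed the filter on low counts in every comparison, so that 6 of the 8 members were tested. Without that filter, Mpc1 was higher in yolk sacs than in embryos by 1.48 on the log2 scale at 5–6 somite pairs (SE 0.239, adjusted p = 1.07e-07) and by 1.14 at 7–9 somite pairs (SE 0.213, adjusted p = 2.91e-06). Its median count was 2 to 3 in the 4 embryo groups and 5 to 6 in the 4 yolk sac groups. For Slc16a7 neither tissue difference passed (−0.65, SE 0.414, and 0.03, SE 0.373).

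**Figure D1:**
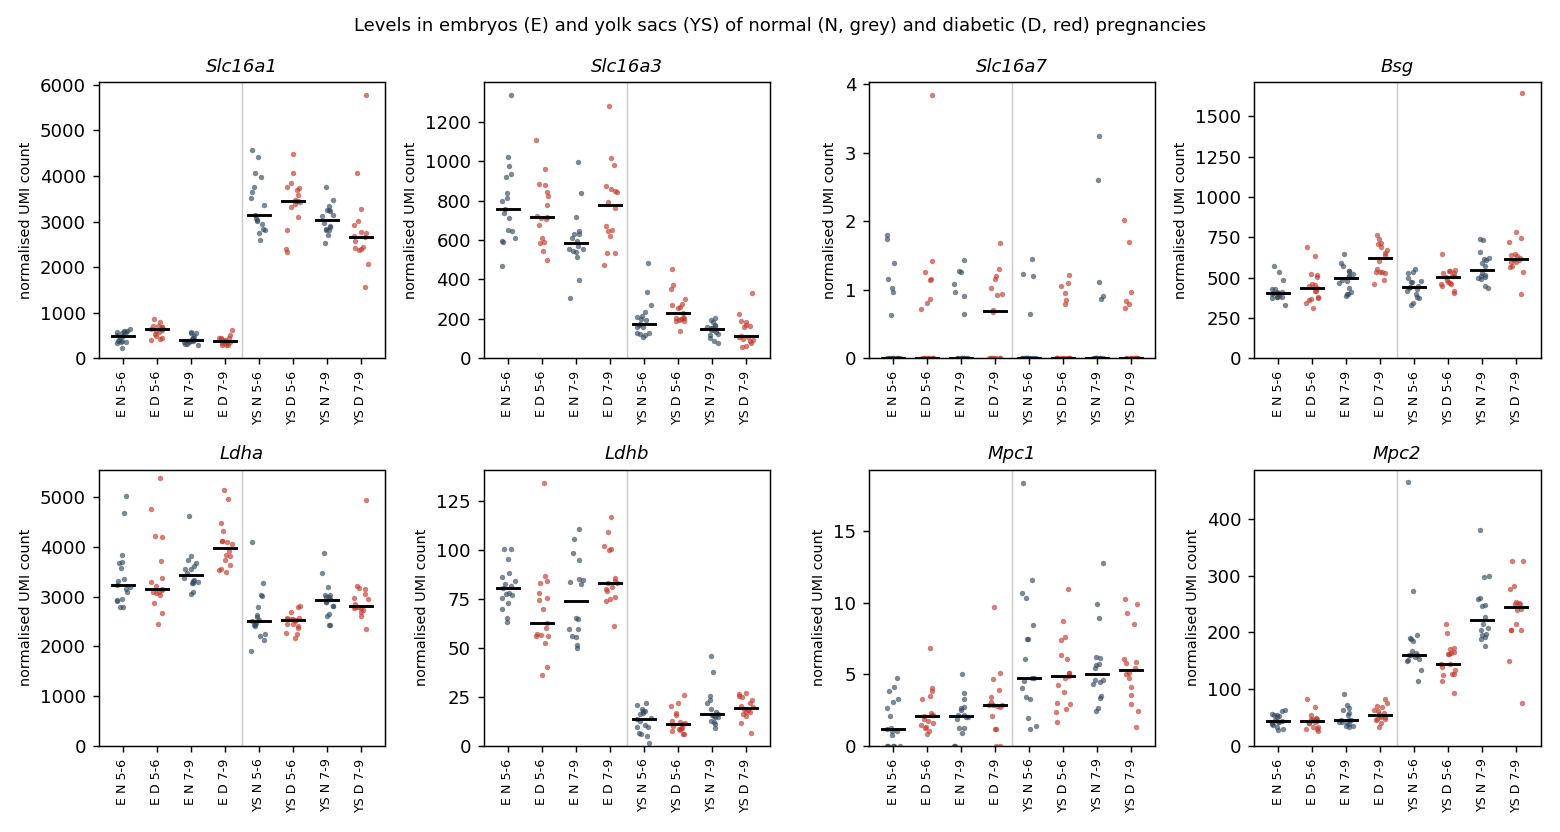
Normalised UMI count (vertical axes, linear from 0) of the 8 members in each library, by tissue (E embryo, YS yolk sac), maternal condition (N normal, dark blue; D diabetic, red) and somite pairs; points are libraries and bars are group medians, n = 17 per group at 5–6 and 16 at 7–9. Slc16a1 and Mpc2 stand higher in yolk sacs and Slc16a3 and Ldhb in embryos, and Slc16a7 and Mpc1 reach at most 3.84 and 18.4 normalised counts.

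The first question was how the tissues differ. All 6 tested members differed between yolk sac and embryo at both stages, 3 higher and 3 lower in the yolk sac, where 79.1% of all 11677 genes tested passed at 5–6 somite pairs and 81.2% of 11577 at 7–9. With so large a background, the count of members that passed says little, and sizes and directions are given instead. The median log2 difference was −0.09 over the members against 0.00 over all genes at the earlier stage, and −0.08 against −0.04 at the later stage.

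The plasma membrane carriers ran in opposite directions. Slc16a1 had its lowest, median and highest value at 235, 494 and 639 normalised counts in earlier normal embryos and at 412, 636 and 864 in earlier diabetic embryos. In the yolk sacs it stood at 2597, 3149 and 4579 under normal and at 2337, 3452 and 4481 under diabetic conditions. The lowest yolk sac thus lay above the highest embryo, and the yolk sac was higher in 34 of 34 concepti. The difference was 2.72 on the log2 scale (SE 0.0788, adjusted p = 8.53e-45), a ratio of means of 6.24. At 7–9 somite pairs the values were 302, 393 and 587 in normal and 298, 386 and 630 in diabetic embryos. They were 2526, 3046 and 3755 in normal and 1575, 2668 and 5779 in diabetic yolk sacs. Again no yolk sac overlapped an embryo, and the difference was 2.87 (SE 0.0799, adjusted p = 1.50e-44). In whole tissue, a different number of cells that express a gene and a different amount of RNA per cell cannot be told apart.

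Slc16a1 (ENSMUSG00000032902, chromosome 3, 104638668 to 104658462, plus strand, GRCm38 coordinates of GENCODE M21) contains the separately counted Gm43581, annotated as a transcript within an intron on the same strand (104642994 to 104645857). Gm43581 had 28389 counts against 239275 for Slc16a1, with group means of 103 to 165 normalised counts in embryos and 192 to 327 in yolk sacs. Whether these are tags of the Slc16a1 precursor was not tested. A further transcript in this gene, Gm43585, had 40 counts.

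Slc16a3 (ENSMUSG00000025161, chromosome 11, 120948480 to 120960868, plus strand) was lower in yolk sacs. At 5–6 somite pairs its lowest, median and highest values were 467, 759 and 1336 normalised counts in normal and 501, 715 and 1107 in diabetic embryos. In yolk sacs they were 109, 176 and 482 under normal and 136, 230 and 455 under diabetic conditions, so the tissues overlapped by a narrow margin while the yolk sac was lower in 34 of 34 concepti. The log2 difference was −1.70 (SE 0.110, adjusted p = 6.56e-24). At 7–9 somite pairs the embryos lay at 306, 583 and 998 under normal and at 472, 778 and 1278 under diabetic conditions. The yolk sacs lay at 80.2, 148 and 207 and at 57.6, 111 and 331, lower in 32 of 32 concepti, with a difference of −2.27 (SE 0.117, adjusted p = 5.93e-29). The tissues overlapped at this stage only through the yolk sac of D28M36C, since the next highest yolk sac stood at 223.

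Within single libraries the order of the carriers was therefore reversed between tissues. In yolk sacs Slc16a1 exceeded Slc16a3 in every library, by 4.16 and 3.80 on the log2 scale at 5–6 somite pairs and by 4.43 and 4.45 at 7–9 (normal and diabetic, adjusted p = 4.41e-05 in each, two-sided sign-flip permutation test adjusted over 32 comparisons). At n = 16, the unadjusted p of 3.05e-05 is the smallest that the sign flips can give. In embryos Slc16a3 was the higher of the pair. It led in 15 of 17 normal and 14 of 17 diabetic embryos at the earlier stage, by 0.73 (adjusted p = 0.000149) and by 0.27 (adjusted p = 0.0356), as −0.73 and −0.27 for Slc16a1 minus Slc16a3. At the later stage it led in 14 of 16 normal embryos (−0.51, adjusted p = 0.000189) and in 16 of 16 diabetic embryos (−0.93, adjusted p = 4.41e-05). Slc16a3 also exceeded Slc16a7 in every library.

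**Figure D2:**
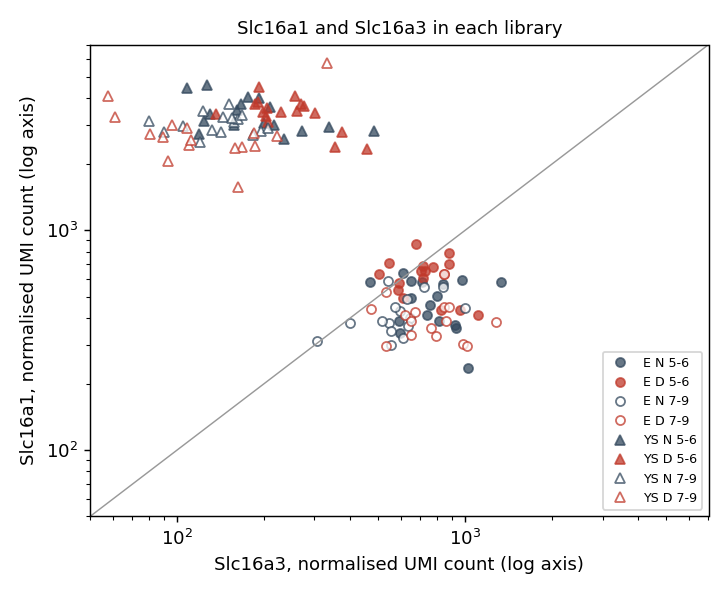
Slc16a1 (vertical, log axis) against Slc16a3 (horizontal, log axis) in normalised UMI counts, 1 point per library; circles are embryos and triangles yolk sacs, filled at 5–6 and open at 7–9 somite pairs, dark blue normal and red diabetic, and the line marks equal levels. All yolk sacs lie above the line, and most embryos lie below it.

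Bsg (ENSMUSG00000023175, chromosome 10, 79704491 to 79711969, plus strand), the partner of both carriers, was nearly even between tissues. Over both conditions it ranged from 311 to 688 normalised counts in earlier embryos and from 332 to 644 in earlier yolk sacs, and from 386 to 766 and from 399.9 to 1645 at the later stage, where the highest yolk sac was that of D28M36C and the next stood at 786. The groups overlapped almost fully, and the yolk sac was the higher in 22 of 34 and 21 of 32 concepti. The differences were small, 0.18 at 5–6 (SE 0.0580, adjusted p = 0.00370) and 0.18 at 7–9 somite pairs (SE 0.0712, adjusted p = 0.0150). Scaling by library totals alone moved the median of all genes by −0.19 and −0.12 in these comparisons, and Bsg then stood at −0.01 (adjusted p = 0.827) and 0.04 (adjusted p = 0.543), so the direction at 5–6 somite pairs depends on the scaling. Without embryos above 500 CPM of visceral endoderm markers, Bsg at 5–6 somite pairs stood at 0.11 (adjusted p = 0.0782).

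The dehydrogenase subunits were both lower in yolk sacs, to very different degrees. Ldha (ENSMUSG00000063229, chromosome 7, 46841475 to 46855627, plus strand) ranged from 2443 to 5384 normalised counts in earlier embryos and from 1901 to 4111 in earlier yolk sacs. The tissues overlapped, the yolk sac was lower in 31 of 34 concepti, and the difference was −0.36 (SE 0.0618, adjusted p = 2.58e-07). At the later stage the ranges were 3063 to 5151 and 2359.8 to 4951 (3873 without the yolk sac of D28M36C), the yolk sac was lower in 31 of 32 concepti, and the difference was −0.34 (SE 0.0497, adjusted p = 7.17e-09). Ldhb (ENSMUSG00000030246, chromosome 6, 142490249 to 142507957, minus strand) had its lowest, median and highest value at 63.4, 80.7 and 100.3 in normal and at 36.3, 62.7 and 134 in diabetic embryos at 5–6 somite pairs. In yolk sacs it stood at 1.57, 13.8 and 21.8 and at 5.83, 10.9 and 25.7, with no overlap between tissues. The difference was −2.47 (SE 0.119, adjusted p = 3.76e-31). At 7–9 somite pairs its values were 50.0002, 74.0 and 111 in normal and 61.2, 83.1 and 117 in diabetic embryos. They were 8.93, 16.0 and 46.0 in normal and 6.69, 19.3 and 26.97 in diabetic yolk sacs, again without overlap, and the difference was −2.04 (SE 0.107, adjusted p = 1.92e-28).

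The share of Ldhb among the counts of both subunits does not depend on library scaling. It was 2.34% in normal and 2.01% in diabetic embryos at 5–6 somite pairs, and 2.10% and 2.13% at 7–9 (group means). In yolk sacs it was 0.485% and 0.498%, then 0.654% and 0.647%. Single libraries ranged from 1.17% to 4.16% over the embryo groups and from 0.0734% to 1.52% over the yolk sac groups. Put as the share of Ldha, yolk sacs exceeded embryos by 1.86 and 1.51 percentage points at the earlier and by 1.45 and 1.48 at the later stage (normal and diabetic, adjusted p = 0.00012 in each, two-sided permutation test within concepti, adjusted over 12 comparisons). With litter means, the later differences did not pass, at 1.42 points over 7 litters (adjusted p = 0.0625) and 1.52 over 6 (adjusted p = 0.0938, exact sign-flip test), where the smallest unadjusted p that the exact test can give is 0.0156 and 0.0312. None of the 4 comparisons of maternal condition passed (adjusted p = 0.165 to 0.948) and none of the 4 of stage (adjusted p = 0.114 to 0.812). Ldha exceeded Ldhb in every library, by 5.38 to 5.67 on the log2 scale in embryo groups and by 7.24 to 7.72 in yolk sac groups. Of annotated Ldha pseudogenes, Ldha-ps had 0 counts and Ldha-ps2 had 2, which bounds what was assigned to these copies but not what a near-identical copy could give to Ldha.

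**Figure D3:**
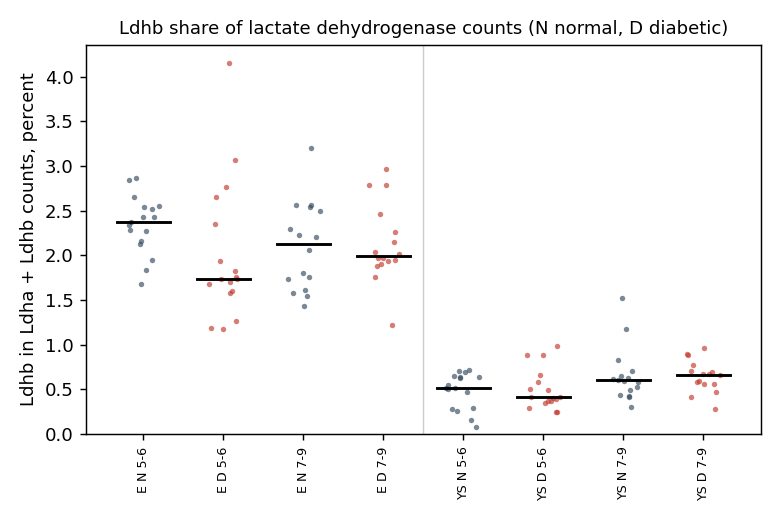
Ldhb counts as a percentage of Ldha plus Ldhb counts (vertical axis, from 0) in each library, by tissue (E, YS), condition (N, D) and somite pairs; points are libraries and bars are medians, n = 17 or 16 per group. Embryos lie between 1.17% and 4.16% and yolk sacs between 0.0734% and 1.52%.

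Of the mitochondrial carrier subunits, Mpc2 (ENSMUSG00000026568, chromosome 1, 165460637 to 165481214, plus strand) was higher in yolk sacs. At 5–6 somite pairs its lowest, median and highest values were 27.3, 43.8 and 62.9 normalised counts in normal and 26.1, 44.5 and 82.3 in diabetic embryos. In yolk sacs they were 114, 160.2 and 465 and 93.0, 145 and 215, without overlap between the tissues. The difference was 1.95 (SE 0.0992, adjusted p = 8.44e-30) at this stage and 2.16 (SE 0.0950, adjusted p = 6.81e-33) at the later one, with the yolk sac higher in all concepti of both stages (34 and 32). At 7–9 somite pairs the values were 33.9, 45.9 and 91.6 in normal and 33.3, 54.1 and 81.8 in diabetic embryos, and 176, 221 and 381 in normal and 76.1, 245 and 326 in diabetic yolk sacs. The ranges met only through the yolk sac of D28M36C, at 76.1. Mpc2 overlaps Gm37860 on the same strand, which had 169 counts. Mpc2 exceeded Mpc1 in every library, with group means of −5.23 to −3.78 for the log2 difference of Mpc1 minus Mpc2 (adjusted p = 4.41e-05). Mpc1 (ENSMUSG00000023861, chromosome 17, 8282904 to 8297661, plus strand) overlaps 4930506C21Rik on the opposite strand, which had 14 counts, and tags of a 3′ end outside its annotation would not be counted, which was not tested.

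**Figure D4:**
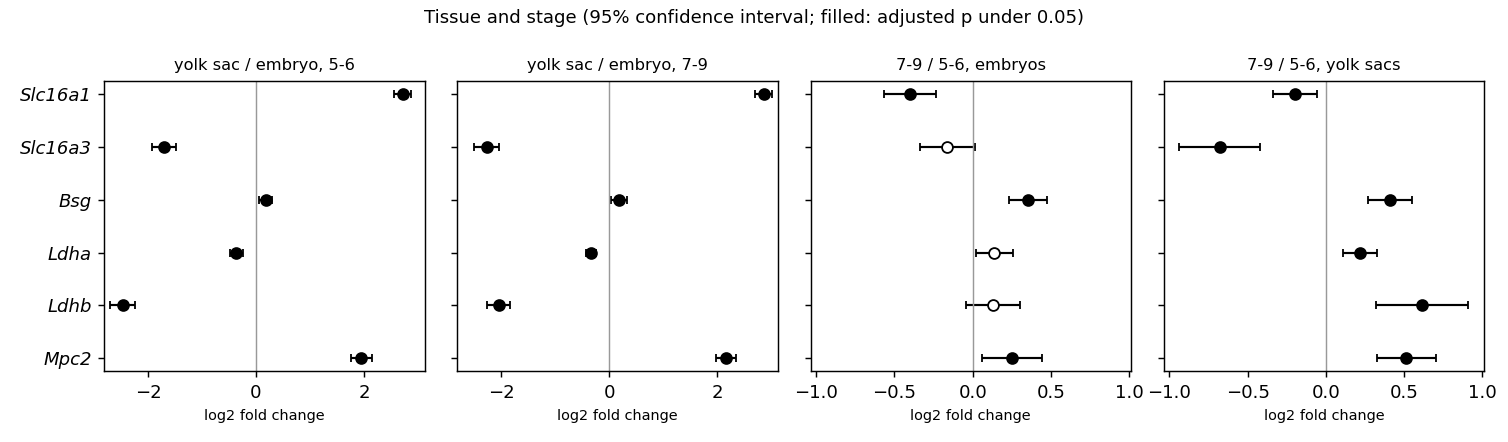
Log2 fold change (horizontal axes) of the 6 tested members for yolk sac over embryo at each stage (left pair of panels) and for 7–9 over 5–6 somite pairs in each tissue (right pair, narrower axis); points are estimates, bars 95% confidence intervals, and filled points have an adjusted p under 0.05. Slc16a1 and Mpc2 lie to the right and Slc16a3 and Ldhb to the left in the tissue panels, and Bsg is positive in all panels, with a sign at 5–6 somite pairs that turns when library totals alone set the scale.

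The same comparison showed further genes of the pathway apart. Of 48 genes of related function listed beside the members, 33 were tested. In yolk sacs 23 were higher and 6 lower at 5–6 somite pairs, and 21 higher and 6 lower at 7–9, with median differences of 0.37 and 0.38. Among other carriers of this family, Slc16a9 was higher by 4.45 and 4.80 and Slc16a10, an aromatic amino acid carrier, by 3.35 and 3.36. Emb encodes embigin, a relative of basigin that also serves carriers of this family, and was higher by 3.23 at the later stage. At the earlier stage its means were 888 and 890 in embryos against 6252.5 and 5395 in yolk sacs (normal and diabetic). The pyruvate kinase genes differed in direction, with Pklr higher by 4.44 and 4.64 and Pkm lower (−1.12 and −1.24). All 10 genes of the NADH shuttles were higher in yolk sacs at both stages, where 4590 of 11677 and 4469 of 11577 genes were, among them the aspartate–glutamate carrier Slc25a12 (2.99 and 3.003) and, at the earlier stage, the glycerol phosphate dehydrogenase Gpd1 (2.88). Among genes that control pyruvate dehydrogenase, those lower in yolk sacs included the kinase Pdk3 (−1.08 and −1.30), the phosphatase Pdp1 (−0.88 and −0.77) and, at the later stage, Pdp2 (−0.41). At the earlier stage the aminotransferase gene Gpt2 was lower as well (−0.49).

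The next question was whether maternal diabetes altered these genes in the embryo. At 5–6 somite pairs none of the 6 members passed, where 161 of 11004 genes (1.46%) did, and 2313 genes had an unadjusted p under 0.05, Slc16a1 and Ldhb among them. Slc16a1 had the largest difference, 0.38 (SE 0.114, 95% interval 0.15 to 0.61, adjusted p = 0.0681). By library it was above the highest normal embryo in 8 of 17 diabetic embryos, and by litter mean above the normal median in 7 of 9 diabetic litters. DESeq2 placed it past the threshold (adjusted p = 0.0399), while a fit with the litter as a random block did not (adjusted p = 0.237). Without embryos above 500 CPM of visceral endoderm markers, Slc16a1 stood at 0.29 (adjusted p = 0.353 by edgeR). Ldhb lay below the lowest normal embryo in 9 of 17 diabetic embryos, and its difference of −0.24 (SE 0.118, adjusted p = 0.232) did not pass. For Ldha (0.02, interval −0.18 to 0.21), Bsg (0.11, −0.08 to 0.30), Slc16a3 (−0.08, −0.30 to 0.15) and Mpc2 (0.00, −0.28 to 0.27) the intervals bound the difference.

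At 7–9 somite pairs Bsg and Ldha were higher in embryos from diabetic pregnancies, 2 of 6 members, where 966 of 10628 genes (9.09%) passed. Bsg had its lowest, median and highest value at 386, 498 and 644 normalised counts in normal and at 461, 623 and 766 in diabetic embryos. The groups overlapped, with 7 of 16 diabetic embryos above every normal one and 14 of 16 above the normal median. The difference was 0.31 on the log2 scale, or 1.24-fold (SE 0.0787, adjusted p = 0.0126). Ldha stood at 3063, 3436 and 4636 in normal and at 3504, 3988 and 5151 in diabetic embryos. All 16 diabetic embryos lay above the normal median and 2 above the normal maximum, and the difference was 0.21, or 1.15-fold (SE 0.0638, adjusted p = 0.0364). For both genes the mean of each of the 6 diabetic litters was above the median of the 7 normal litters.

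These differences are small and rest on related embryos. Bsg passed without each of the 13 litters in turn (adjusted p up to 0.0448) and with litter as a random block (0.33, adjusted p = 0.0352), and did not pass with counts summed per litter (0.39, adjusted p = 0.107). Ldha did not pass with litter as a random block (adjusted p = 0.0838), with counts summed per litter (adjusted p = 0.221), or without litter D28M36, N28M03, N28M05 or N28M07 (adjusted p = 0.0863, 0.0579, 0.110 and 0.105). Other marker genes moved with this comparison. The 3 heart markers, all detected, summed to 183 to 362 CPM in normal and 274 to 534 CPM in diabetic embryos, and their part in the result was not tested. Visceral endoderm markers reached 665 CPM in normal and 1572 CPM in diabetic embryos, and without embryos above 500 CPM Bsg stood at 0.27 (adjusted p = 0.0799) and Ldha at 0.19 (adjusted p = 0.125). Over both stages 13 embryos were above 500 CPM, 9 of them from diabetic pregnancies, so this setting removed mostly diabetic embryos.

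Among the other members, Slc16a3 had values of 306, 583 and 998 in normal and 472, 778 and 1278 in diabetic embryos, with 13 of 16 diabetic embryos above the normal median. Its difference of 0.36 (SE 0.124, adjusted p = 0.0620) did not pass, whereas DESeq2 gave an adjusted p of 0.0438. Ldhb (0.21, SE 0.111, adjusted p = 0.222), Mpc2 (0.18, SE 0.135, adjusted p = 0.388) and Slc16a1 (−0.07, SE 0.104, adjusted p = 0.702) did not pass. The median difference was 0.21 over the 6 members and −0.01 over all genes tested. Of the 28 tested genes of the pathway list 1 passed, the pyruvate kinase gene Pkm, which was higher by 0.25 (SE 0.0761, adjusted p = 0.0343). At the earlier stage none of 28 passed.

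**Figure D5:**
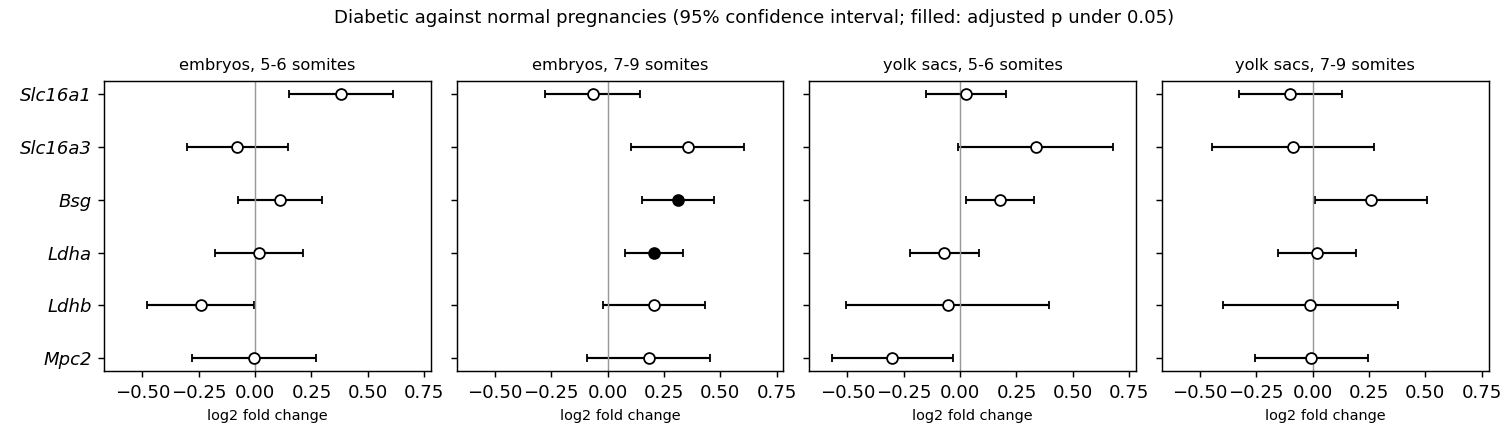
Log2 fold change, diabetic over normal pregnancies (horizontal axes, same range), of the 6 tested members in each tissue and stage; points are estimates, bars 95% confidence intervals, and filled points have an adjusted p under 0.05. Bsg and Ldha in embryos at 7–9 somite pairs are the filled points.

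Whether the response of the embryo differed between the stages was tested as an interaction, diabetes at 7–9 minus diabetes at 5–6 somite pairs. None of the 6 members passed, where 8.7% of 11304 genes did. Of the 6, 3 had an unadjusted p under 0.05, as did 3171 of the 11304 genes. The 3 members were Ldhb at 0.46 (SE 0.164, adjusted p = 0.0600), Slc16a1 at −0.43 (SE 0.157, adjusted p = 0.0677) and Slc16a3 at 0.45 (SE 0.170, adjusted p = 0.0768). These were past the threshold when the first number in the library titles, which follows the letter for maternal condition, entered as a covariate (adjusted p = 0.0476, 0.0301 and 0.0337). Ldhb also passed without litter D24M15 (0.66, adjusted p = 0.0166). In the pathway list, Mdh1, a cytosolic malate dehydrogenase (0.42, adjusted p = 0.0493), and Pdha1, a pyruvate dehydrogenase subunit (0.34, adjusted p = 0.0331), passed.

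In yolk sacs no member passed at either stage. At 5–6 somite pairs 0 of 10250 genes (0%) passed by edgeR, with 863 at an unadjusted p under 0.05, and at 7–9 somite pairs 2 of 10317 (0.0194%). Bsg at the earlier stage had values of 332, 440 and 553 in normal and 408, 502 and 644 in diabetic yolk sacs, with the means of 9 of 9 diabetic litters above the normal median. Its difference of 0.18 had an unadjusted p of 0.0219 (SE 0.0743, adjusted p = 0.552). At the later stage it stood at 436, 550.3 and 743 in normal and at 399.9, 615 and 1645 in diabetic yolk sacs, with a difference of 0.26 (SE 0.123, unadjusted p = 0.0419, adjusted p = 0.434), or of 0.12 (adjusted p = 0.589) without the yolk sac of D28M36C. Mpc2 at the earlier stage was at −0.30 (SE 0.133, unadjusted p = 0.0293, adjusted p = 0.564), and Slc16a3 at 0.33 (SE 0.171, adjusted p = 0.609).

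For the other members in yolk sacs the intervals bound the difference. For Slc16a1 they were −0.15 to 0.20 at the earlier and −0.33 to 0.13 at the later stage, and for Ldha −0.22 to 0.08 and −0.15 to 0.19. For Ldhb, with its low counts, they were wider, at −0.50 to 0.39 and −0.40 to 0.38. Later, Slc16a3 lay at −0.09 (−0.44 to 0.27) and Mpc2 at −0.01 (−0.26 to 0.24). Without the yolk sac of D28M36C the later values were −0.20 for Slc16a1 (adjusted p = 0.348, from −0.10), −0.20 for Slc16a3 (adjusted p = 0.650), −0.05 for Ldha (from 0.02) and 0.05 for Mpc2, and none passed. None of the 30 tested pathway genes passed at either stage. Trophoblast and decidua markers were higher in the diabetic groups, with medians of 34.5 against 6.14 CPM at the earlier and 13.1 against 5.37 CPM at the later stage and highest values of 211 against 102 and 323 against 31.1 CPM. Prl3d1 and Prl2c2 were at 0 in both normal groups and Prl2c2 in the later diabetic group. Without the 6 yolk sacs above 100 CPM, 5 of them from diabetic pregnancies, still no member passed.

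The interaction of stage and diabetes in yolk sacs was passed by none of 10857 genes (0%) by edgeR, with 634 at an unadjusted p under 0.05 and no member among them. The interaction of tissue and diabetes was passed by 57 of 12183 genes (0.468%) and by no member. The largest member differences there, yolk sac minus embryo, were −0.24 for Mpc2 (SE 0.136, adjusted p = 0.407) and −0.19 for Slc16a1 (SE 0.105, adjusted p = 0.380). Averaged over the stages, it was 0.01 for Bsg (SE 0.0939, adjusted p = 0.989) and −0.13 for Ldha (SE 0.0795, adjusted p = 0.428). Bsg and Ldha passed in later embryos and not in yolk sacs. Because this test averages the stages, it cannot decide whether the tissues differed at the later stage, which was not tested alone.

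The stages were compared within each tissue, with both maternal conditions in the fit. In embryos 3 of 6 passed between 5–6 and 7–9 somite pairs, against 29.8% of 11304 genes. Slc16a1 was lower at the later stage by −0.40 (SE 0.0826, adjusted p = 0.000141), and the group medians went from 494 and 636 to 393 and 386 normalised counts. Bsg was higher by 0.35 (SE 0.0617, adjusted p = 1.02e-05), with medians of 404 and 434 against 498 and 623. Mpc2 was higher by 0.25 (SE 0.0964, adjusted p = 0.0389), and this did not hold without litter D24M15 (0.24, adjusted p = 0.111), with counts summed per litter (adjusted p = 0.189), with no filter on low counts (0.24, adjusted p = 0.102) or without embryos high in visceral endoderm markers (0.21, adjusted p = 0.158). With summed counts Slc16a1 did not pass either (−0.30, adjusted p = 0.0912). Ldha (0.14, SE 0.0594, adjusted p = 0.0680), Ldhb (0.13, SE 0.0861, adjusted p = 0.249) and Slc16a3 (−0.16, SE 0.0891, adjusted p = 0.167) did not pass. Marker genes moved with stage in embryos too, in median summed CPM of normal and diabetic groups: the 5 erythroid markers from 20.7 and 15.3 to 86.8 and 105, the 3 somite markers from 60.5 and 48.1 to 96.4 and 81.3, and the 3 heart markers from 185 and 173 to 239 and 340.0. All were detected in each group, and their part in the differences was not tested.

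In yolk sacs all 6 members passed, 4 higher and 2 lower at the later stage, against 40% of 10857 genes. Slc16a3 fell by 0.68 on the log2 scale (SE 0.129, adjusted p = 2.27e-05), with medians of 176 and 230 at the earlier and 148 and 111 normalised counts at the later stage and overlapping ranges. Slc16a1 fell by 0.20 (SE 0.0700, adjusted p = 0.0209), which did not hold without litter D24M15 (−0.13, adjusted p = 0.152) or with counts summed per litter (adjusted p = 0.0932). Ldhb rose by 0.61 (SE 0.149, adjusted p = 0.00065), with medians of 13.8 and 10.9 against 16.0 and 19.3. Mpc2 rose by 0.51 (SE 0.0957, adjusted p = 1.45e-05), Bsg by 0.41 (SE 0.0707, adjusted p = 3.44e-06) and Ldha by 0.22 (SE 0.0544, adjusted p = 0.000943). The 5 erythroid markers, all detected, went from medians of 3573 and 3534 CPM at the earlier to 7330.1 and 8025 CPM at the later stage, and those of visceral endoderm from 9318 and 8835 to 13700 and 13481 CPM. Their part in these differences was not tested. Trophoblast and decidua markers went from medians of 6.14 and 34.5 to 5.37 and 13.1 CPM (normal and diabetic). Over the alternatives other than a left-out litter, which include leaving out the yolk sacs high in these markers, Slc16a3 ran from −0.74 to −0.49. It passed in 10 of 10. Without the yolk sac of D28M36C all 6 members still passed.

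Around the members, 2 of 29 tested pathway genes were higher and 8 lower in later embryos, and 7 of 33 higher and 3 lower in later yolk sacs, beside the 29.8% and 40% of all genes that passed. In embryos Pdpr, a regulator of pyruvate dehydrogenase phosphatase (−0.62), Emb (−0.44), Pdhb (−0.38) and Slc25a13 (−0.29) were among those that fell, and Pdp2 (0.39) and Pdhx (0.23) were higher. In yolk sacs Pklr (0.74), Slc16a13 (0.51), Gpd1 (0.47), Gpt2 (0.42) and Pcx (0.35) were higher, and Pdpr (−0.88), Slc25a13 (−0.26) and Got1 (−0.18) lower.

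The stage difference was not the same in both tissues for 1 member. For Slc16a3 the interaction of tissue and stage was −0.51 (yolk sac minus embryo, SE 0.156, adjusted p = 0.0445), 1 of 6 members against 3.23% of 12183 genes. It did not pass with counts summed per litter (−0.56, adjusted p = 0.184), without litter D24M15 (−0.53, adjusted p = 0.0971), with library totals as the only scaling (−0.51, adjusted p = 0.0556), or without the 6 yolk sacs high in trophoblast and decidua markers (−0.33, adjusted p = 0.271). Without the yolk sac of D28M36C it was −0.59 (adjusted p = 0.0111). The value averages the maternal conditions, which were not tested apart. Group means of Slc16a3 went from 789 to 603 in normal and from 743 to 774 in diabetic embryos. In yolk sacs they went from 201 to 145 in normal and from 253 to 139 in diabetic pregnancies. Ldhb had the second largest value (0.48, SE 0.162, adjusted p = 0.0775). In the pathway list Emb (0.52), Gpt2 (0.51) and Slc16a13 (0.47) passed.

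Finally, genes whose level followed each member across libraries were listed by Pearson's r of log2 normalised counts over the compared libraries, after subtraction of the mean of each of the 8 groups, among 10896 genes with a mean of at least 10 counts. These are descriptions without a test, and the libraries share depth and tissue makeup. Slc16a1 was followed by Ralb (r = 0.62), Car14 (0.60) and Arpc2 (0.60), and Slc16a3 by Crocc (0.68), 1700017B05Rik (0.67) and Gpc1 (0.64). Bsg was followed by Ppp1ca (0.66), Aar2 (0.59) and Eif6 (0.58). Ldha had Rpsa (0.76), Mif (0.75) and Nhp2 (0.70), and Ldhb had Ifitm1 (0.50), Psmb3 (0.49) and Mrpl13 (0.47). Mpc2 had Uqcrc2 and Atp5f1 (both 0.82), which encode subunits of mitochondrial respiratory complexes, and Rps21 (0.81). Between members r ran from −0.44 for Slc16a3 with Mpc2 to 0.45 for Bsg with Ldha.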

How the data were processed

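RNA of embryos and yolk sacs was made into 3′ tag libraries with unique molecular identifiers. The submitters' processing notes name STAR, HTSeq and the build mm10, with versions not given in the sources used here. The deposited values are raw counts of molecules for 47643 genes in 136 libraries; 4 duplicate libraries used as batch controls were left out of the comparisons.

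Totals of 1017901 to 5658850 counts per library limit the precision for Slc16a7 and Mpc1. Counts were tested with edgeR 4.0.16 in R 4.3.3 (quasi-likelihood test, TMM scaling, filterByExpr with a minimum count of 10, Benjamini-Hochberg adjustment over all genes tested, threshold 0.05), a fit checked on simulated data. The simulated libraries were independent of each other, so this did not check the fit for littermates or paired tissues. Levels are counts divided by DESeq2 1.42.0 size factors. The maternal conditions were compared within tissue and stage, the tissues and the stages with maternal condition as a covariate, and interactions from group means. Orders within libraries and Ldha shares were tested by permutation (SciPy 1.17.1, up to 100000 resamples). Alternatives were other scalings, no filter, DESeq2, limma 3.58.1 with litter as a random block, sums per litter, covariates and each litter left out. The settings that leave out libraries by markers or level were chosen after seeing the data. Littermates were counted as separate samples in the main tests.

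The embryo and yolk sac of a conceptus share its name in the labels, which is where the pairing comes from. The members and the lists were chosen with earlier results of these data known. Named genes are the 8 members, up to 5 raised and 5 lowered pathway genes per comparison with a mean of at least 10 normalised counts in a compared group, and the 3 genes most correlated with each member. Of the genes that this rule names, 1 pathway gene is not reported here.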

Additional observations from a re-analysis of the deposited data

Results flagged for a closer look

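The difference between the stages was not the same in both tissues for Slc16a3: the interaction of tissue and stage was −0.51 on the log2 scale (SE 0.156, adjusted p = 0.0445 by edgeR), with a stage difference of −0.68 in yolk sacs and −0.16 in embryos. The yolk sac of D28M36C, the highest of its group, stood against this direction, and without it the value was −0.59 (adjusted p = 0.0111). The interaction averages the maternal conditions, which were not tested apart. In normal pregnancies the group means went from 789 to 603 in embryos and from 201 to 145 in yolk sacs. In diabetic pregnancies they went from 743 to 774 in embryos and from 253 to 139 in yolk sacs. Over the alternatives other than a left-out litter the value ran from −0.59 to −0.33 and the adjusted p from 0.0111 to 0.271, and 8 of 12 passed. Trophoblast and decidua markers were above 100 CPM in 6 yolk sacs, 5 of them from diabetic pregnancies, and moved with the result. Without these libraries the interaction was −0.33 (adjusted p = 0.271).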

How the results depend on the processing

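The order of each gene pair within libraries kept its direction and its side of the threshold under all 96 alternatives run for it. Most of these only changed the constant added before the logarithm (0.5 or 5), which cannot change which gene is higher in a library. The other 32 used litter means. With the conceptus as a replicate block (pairing of embryo and yolk sac), 6 members passed between tissues at either stage, 0 in the interaction of tissue and diabetes and 1 in that of tissue and stage (Slc16a3, −0.50, adjusted p = 0.0254), so the pairing changed no call. It turned the sign of 2 uncalled values of the tissue and diabetes interaction, Bsg (−0.00062) and Ldhb (0.012).

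In embryos at 5–6 somite pairs, the count of members called for diabetes was 1 with DESeq2 and with all 8 groups in 1 fit, and 0 to 1 over left-out litters (1 without N23M31 or N24M21, Slc16a1 in each). At 7–9 somite pairs, against 2, it was 1 with litter as a random block, with no filter, without the concepti of conflicting sex labels and with all 8 groups in 1 fit, 0 with sums per litter and without embryos high in visceral endoderm markers, and 1 to 3 over left-out litters (1 without D28M36, N28M03 or N28M05, 3 without D28M24). It was 3 with DESeq2 and with the title number as a covariate, where Slc16a3 passed as well. Between stages in embryos, against 3, it was 1 with sums per litter, 2 with no filter, without embryos high in visceral endoderm markers and without D24M15 (Mpc2 lost in each), and 4 with litter as a random block, with library totals only and without the concepti of conflicting sex labels (Ldha gained in each). Between tissues at 5–6 somite pairs, against 6, it was 5 with library totals only and without embryos high in visceral endoderm markers, and at 7–9 it was 5 with library totals only (Bsg lost in each). For the stage and diabetes interaction in embryos, against 0, it was 3 with the title number as a covariate, 1 with litter as a random block and 1 without D24M15. For tissue and stage, against 1, it was 0 with library totals only, with sums per litter, without yolk sacs high in trophoblast and decidua markers, without embryos high in visceral endoderm markers and without D24M15. For the Ldha share, 2 of 12 comparisons passed with litter means, against 4. The causes were not tested.

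Other values turned sign, all of them uncalled in the main test except that of Bsg between tissues. With litter as a random block these were diabetes in embryos at 5–6, Mpc2 (0.033), diabetes in yolk sacs at 7–9, Ldhb (0.043), tissue and diabetes, Bsg (−0.0034) and Ldhb (0.034). With library totals only these were diabetes in embryos at 5–6, Ldha (−0.026), diabetes in yolk sacs at 7–9, Ldhb (0.017) and Mpc2 (0.033), tissue at 5–6, Bsg (−0.014), tissue and diabetes, Slc16a3 (0.038) and Ldhb (0.046). With no filter these were diabetes in embryos at 5–6, Ldha (−0.0099), diabetes in yolk sacs at 7–9, Mpc2 (0.0049), tissue and diabetes, Slc16a3 (0.00059) and Ldhb (0.0016). With sums per litter these were diabetes in embryos at 5–6, Mpc2 (0.12), diabetes in yolk sacs at 7–9, Ldha (−0.035) and Ldhb (0.031), tissue and diabetes, Slc16a3 (0.019) and Bsg (−0.086). Without the 2 concepti with conflicting sex labels these were diabetes in embryos at 5–6, Ldha (−0.0011), stage and diabetes in yolk sacs, Ldhb (−0.0029), tissue and diabetes, Ldhb (0.012), the Ldha share for diabetes in embryo at 7–9 (0.0098 points). With all 8 groups in 1 fit these were diabetes in embryos at 5–6, Ldha (−0.00076). Without embryos high in visceral endoderm markers these were diabetes in embryos at 5–6, Mpc2 (0.088), stage and diabetes in embryos, Mpc2 (−0.016), tissue and diabetes, Bsg (−0.028). With the title number as a covariate these were diabetes in yolk sacs at 7–9, Ldhb (0.0049) and Mpc2 (0.036). Without the yolk sac library that stands apart these were diabetes in yolk sacs at 7–9, Ldha (−0.047) and Mpc2 (0.046), stage and diabetes in yolk sacs, Bsg (−0.054), tissue and diabetes, Bsg (−0.0498), tissue and stage, Bsg (−0.025). Without yolk sacs high in trophoblast and decidua markers these were tissue and diabetes, Bsg (−0.015). With litter means these were the Ldha share for diabetes in yolk sac at 5–6 (0.043 points), the Ldha share for diabetes in yolk sac at 7–9 (−0.021 points). Over left-out litters the ranges that cross 0, or the single value without D24M15 that does, were diabetes in embryos at 5–6, Mpc2 (−0.15 to 0.099), diabetes in embryos at 5–6, Ldha (−0.081 to 0.093), diabetes in yolk sacs at 5–6, Slc16a1 (−0.0035 to 0.12), diabetes in yolk sacs at 5–6, Ldhb (−0.21 to 0.05001), diabetes in yolk sacs at 7–9, Mpc2 (−0.077 to 0.045), diabetes in yolk sacs at 7–9, Slc16a1 (−0.22 to 0.081), diabetes in yolk sacs at 7–9, Ldhb (−0.11 to 0.14), diabetes in yolk sacs at 7–9, Slc16a3 (−0.15 to 0.037), diabetes in yolk sacs at 7–9, Ldha (−0.033 to 0.069), stage and diabetes in yolk sacs, Slc16a1 (0.044).

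Depth limited Slc16a7 and Mpc1, which had 67 and 524 counts over all libraries and were not tested in the main comparisons.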
